A study of Mus musculus with 9 samples.

Results

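The 10 genes described here encode proteins of autophagy and mitophagy: Ulk1, Ulk2, Map1lc3a, Map1lc3b, Gabarapl1, Sqstm1, Bnip3, Bnip3l, Wipi1 and Pink1. They were chosen by name and with earlier results of these data known, so setting them beside all genes is a description and not a test. All 10 were found among the 55416 gene identifiers of the table and passed the filter on low counts, as did 13944 genes in all. They were measured by RNA sequencing of mouse left gastrocnemius, the large calf muscle, in 9 libraries. The AET_MET group held 3 libraries from mice trained on a motorized treadmill and given metformin, an oral glucose-lowering drug, at 2 mg/mL in their drinking water. The AET group held 3 libraries from mice trained in the same way without the drug, and the SED group held 3 libraries from sedentary mice. Training took 60 minutes a day on 5 days a week for 8 weeks. Neither the strain, sex and age of the mice nor the time of collection and feeding state is given in the sources used here, and no group given metformin without training was analysed here. The labels number the samples in each group without saying whether each is a mouse of its own. The p-values therefore rest on the spread among these samples, and that spread may be technical.

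Autophagy encloses part of the cytoplasm in a double membrane, the autophagosome, and delivers it to the lysosome for breakdown. ULK kinases start the process, a lipid kinase complex and WIPI proteins mark the growing membrane, and small ubiquitin-like proteins of the ATG8 family (the LC3 and GABARAP proteins) are attached to its lipids. Cargo receptors such as p62 tie cargo to the ATG8 proteins, and mitophagy receptors or the kinase PINK1 mark mitochondria for the same route. In skeletal muscle the pathway is known to respond to fasting, disuse and exercise, and in mouse muscle FOXO transcription factors are known to induce several of its genes. Transcript levels do not measure the flow of material through the pathway.

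Libraries held 15434424 to 25355877 expected counts, which are read numbers estimated per gene, and the 10 genes had 639 to 12223 each in a library. Levels are given as CPM, read counts scaled to a common library size with TMM factors. The library of AET_MET replicate 1 stood apart: it had the fewest counts, and its slow and oxidative fiber markers averaged 3.33 log2 CPM, against 5.09 to 7.21 in the other 8 libraries, although the summed CPM of these markers was lowest in AET_MET replicate 3. The names of the libraries begin alike in each group, and a batch along those names and the groups cannot be told apart. The defining genes of the muscle fiber were abundant throughout, with 11 markers summing to 148300 to 172600 CPM in a library.

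On the GRCm38 build the genes lie apart from each other, and all 10 are annotated as protein coding. Ulk1 is on chromosome 5 at 110784488 to 110810097. Ulk2, Wipi1 and Sqstm1 are on chromosome 11, at 61775649 to 61855073, at 109573331 to 109611967 and at 50199366 to 50210827. Map1lc3a is on chromosome 2 at 155276297 to 155278073, Map1lc3b on chromosome 8 at 121590361 to 121598760 and Gabarapl1 on chromosome 6 at 129533160 to 129542346. Bnip3 is on chromosome 7 at 138890836 to 138909519, Bnip3l on chromosome 14 at 66985239 to 67008877 and Pink1 on chromosome 4 at 138313409 to 138326307. Exons on the opposite strand share 580 bases with Sqstm1 (Mrnip), 570 with Gabarapl1 (1700101I11Rik), 504 with Bnip3 (Gm45507) and 58 with Map1lc3b (Zcchc14). The strand setting of the counting is not given in the sources used here, so reads of these stretches could be counted for either gene. The partners averaged 28.7, 5.8, 1.1 and 509.6 expected counts per library. On the same strand, Pink1 shares 110 exon bases with Gm27646 and 69 with Mir7019, and Map1lc3b overlaps Gm20388, which shares no exon base with it and averaged 885.6 expected counts. Reads of the exon bases that Pink1 shares are uncertain with any strand setting.

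Of the 10 genes, 6 fell in AET against SED: Ulk1, Map1lc3b, Gabarapl1, Sqstm1, Bnip3 and Bnip3l. In AET_MET against SED 4 fell, namely Ulk1, Map1lc3b, Gabarapl1 and Bnip3, and in AET_MET against AET none passed the test. Calls rest on edgeR's quasi-likelihood test over all 13944 genes, with a Benjamini-Hochberg adjusted p under 0.05. By that test AET was lower than SED for 6.45% of all genes, and AET_MET was lower than SED for 2.42%, where 4.59% were called in either direction. None of the 10 was called higher in either comparison, in edgeR or in DESeq2, and at an unadjusted p under 0.05 the number higher was 0 in AET and 1 in AET_MET (Ulk2). The median log2 change of the 10 genes was -0.43 in AET against SED and -0.24 in AET_MET against SED, beside medians of 0.01 and 0.00 over all genes tested. Both comparisons use the same SED libraries, so they are not independent of each other. The libraries of the groups did not overlap for 6 of the 10 genes in each, beside 32.7% of all genes for AET against SED and 26.8% for AET_MET against SED. The balance of calls over all genes depended on the scaling: for AET against SED 812 were higher and 900 lower with TMM, and 980 higher and 711 lower with upper-quartile scaling. For AET_MET against SED 303 were higher and 337 lower with TMM, and 684 higher and 176 lower with library sizes alone.

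**Figure D1:**
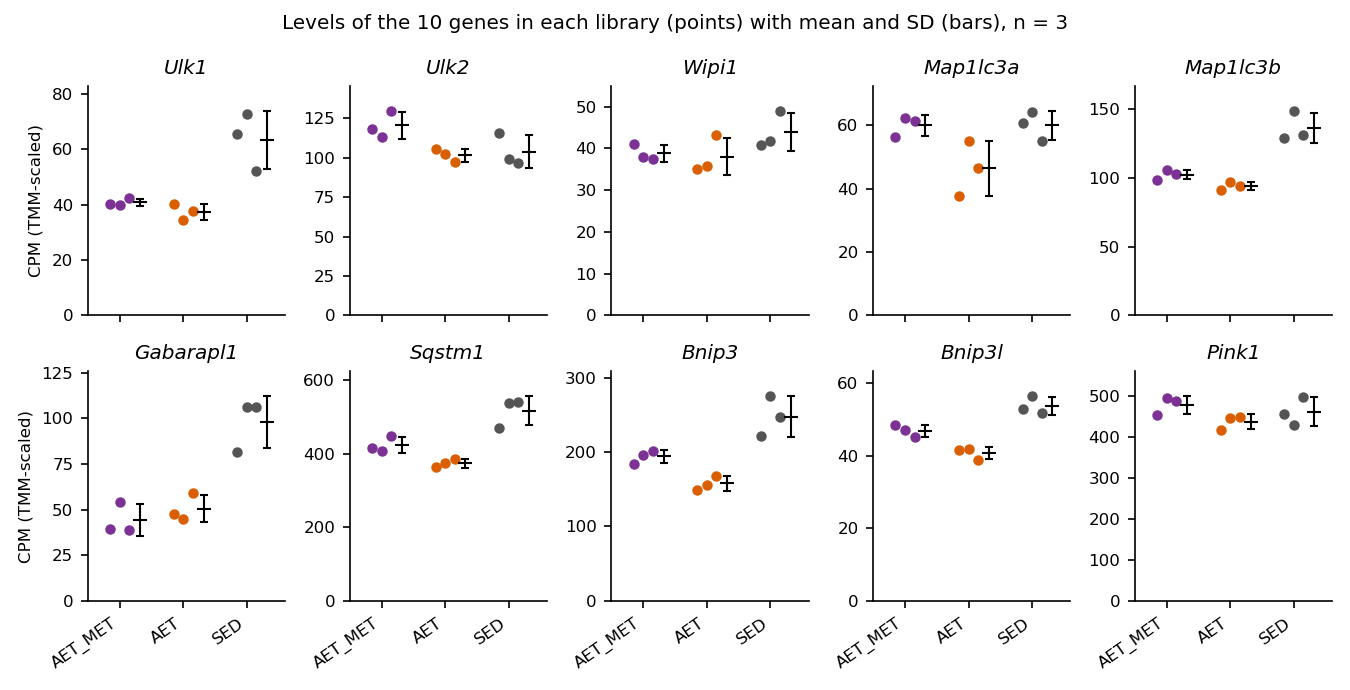
Level of each of the 10 genes in TMM-scaled CPM (y axes, starting at 0) in the libraries of AET_MET, AET and SED (x axis). Points are libraries and bars give the mean and SD of 3. For Ulk1, Map1lc3b, Gabarapl1, Sqstm1, Bnip3 and Bnip3l all 3 SED libraries lie above all 6 libraries of trained mice, while for Pink1 and Wipi1 the SED points overlap those of AET and AET_MET.

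The windows from 250 bases before to 50 bases after the start of transcription were read from RefSeq on GRCm38.p6 for the 8 genes that have one there, which leaves out Map1lc3a and Bnip3l. They were searched on both strands for the letters TGTTTAC (a FOXO site), CACGTG (an E-box, the core of sites bound by TFEB), ACGTG (the core of a hypoxia response element, which lies within the E-box) and AGAACA (a glucocorticoid receptor half-site). Of all 32851 promoter windows, 3.65% held the FOXO letters, 7.15% the E-box, 19.6% the hypoxia core and 19.0% the glucocorticoid half-site. Bnip3 was the only one of the 8 with any match, an E-box at positions -108 to -103 from the start that holds the hypoxia core on each strand. A match is a description and not a bound site. Only these exact letters were sought, so a window without a match may hold other forms of these sites. Such a window also says nothing of sites elsewhere. The windows of the 3 genes with the largest change in AET against SED are printed so that the sequence at their starts can be seen. No value here ties the changes to these windows. They read 5′ to 3′ on the gene's strand, in lower case with the matched letters in capitals.
Gabarapl1 (chr6:129532942-129533241, plus strand): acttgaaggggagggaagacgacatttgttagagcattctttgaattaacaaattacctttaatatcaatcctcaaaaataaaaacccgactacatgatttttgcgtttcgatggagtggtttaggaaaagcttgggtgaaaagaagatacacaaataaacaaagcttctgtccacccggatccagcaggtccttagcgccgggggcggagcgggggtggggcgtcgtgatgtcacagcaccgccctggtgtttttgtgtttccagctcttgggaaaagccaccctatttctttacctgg
Ulk1 (chr5:110810032-110810331, minus strand): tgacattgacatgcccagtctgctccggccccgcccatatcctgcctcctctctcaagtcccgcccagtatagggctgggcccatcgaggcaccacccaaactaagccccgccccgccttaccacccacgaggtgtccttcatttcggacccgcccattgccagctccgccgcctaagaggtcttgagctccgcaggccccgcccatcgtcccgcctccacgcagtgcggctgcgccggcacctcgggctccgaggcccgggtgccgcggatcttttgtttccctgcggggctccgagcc
Bnip3 (chr7:138909457-138909756, minus strand): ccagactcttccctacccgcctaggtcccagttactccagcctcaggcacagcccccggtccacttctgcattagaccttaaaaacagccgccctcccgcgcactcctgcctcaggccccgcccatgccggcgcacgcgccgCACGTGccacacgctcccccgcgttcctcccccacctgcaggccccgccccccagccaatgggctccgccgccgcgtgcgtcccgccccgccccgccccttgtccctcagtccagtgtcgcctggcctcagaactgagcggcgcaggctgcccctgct
The Gabarapl1 window had 46.3% G and C, the lowest of the 8, against 68.0% in Ulk1 and 71.7% in Bnip3.

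Of the 2 initiating kinases, Ulk1 was called lower in both trained groups and Ulk2 was not called. Ulk1, the main kinase that starts autophagy, stood at 40.3, 40.0 and 42.3 CPM in AET_MET libraries, at 40.1, 34.4 and 37.9 CPM in AET libraries and at 65.5, 72.8 and 52.2 CPM in SED libraries. All 6 libraries of trained mice were lower than all 3 SED libraries, and the SED libraries were spread more widely (SD 10.5 CPM) than those of AET_MET (SD 1.29 CPM) and AET (SD 2.89 CPM). Ulk1 was 41.1% lower in AET than in SED, a log2 change of -0.76 ± 0.11 (SE, edgeR adjusted p = 0.00103). It was 35.7% lower in AET_MET than in SED, a log2 change of -0.64 ± 0.11 (edgeR adjusted p = 0.00764), and the call was kept without AET_MET replicate 1 (edgeR adjusted p = 0.0469). It was lost with slow-fiber marker level as covariate, which did not overlap between AET_MET and SED (log2 change -0.61, edgeR adjusted p = 0.172). Its paralog Ulk2, which can act in place of Ulk1 in many cells, stood at 118, 114 and 130.0 CPM in AET_MET libraries, at 106, 102 and 97.3 CPM in AET libraries and at 116, 99.4 and 96.9 CPM in SED libraries. The 3 AET_MET libraries were above the 3 AET libraries, and SED overlapped both groups. The log2 change of Ulk2 was -0.03 ± 0.09 in AET against SED and 0.21 ± 0.09 in AET_MET against SED (edgeR adjusted p = 0.832 and 0.179).

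The balance between the kinases was also read within each library, where scaling plays no part. This ratio and the ATG8 shares and mitophagy receptor ratio below were chosen after the values were seen. Per kilobase of annotated exon, the level of Ulk2 was 3.19, 3.08 and 3.33 times that of Ulk1 in AET_MET libraries, 2.86, 3.23 and 2.79 times in AET libraries and 1.92, 1.48 and 2.02 times in SED libraries. The ratio was higher in all 6 libraries of trained mice than in all 3 SED libraries. The difference in its mean was 1.15 for AET against SED and 1.40 for AET_MET against SED, each with an exact two-sided permutation p of 0.1, the smallest that 3 against 3 libraries allow. Adjusted over the 21 relations of this family computed, that p was 0.21. Neither p accounts for the choice made after the values were seen, here or for the shares and ratio below.

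**Figure D2:**
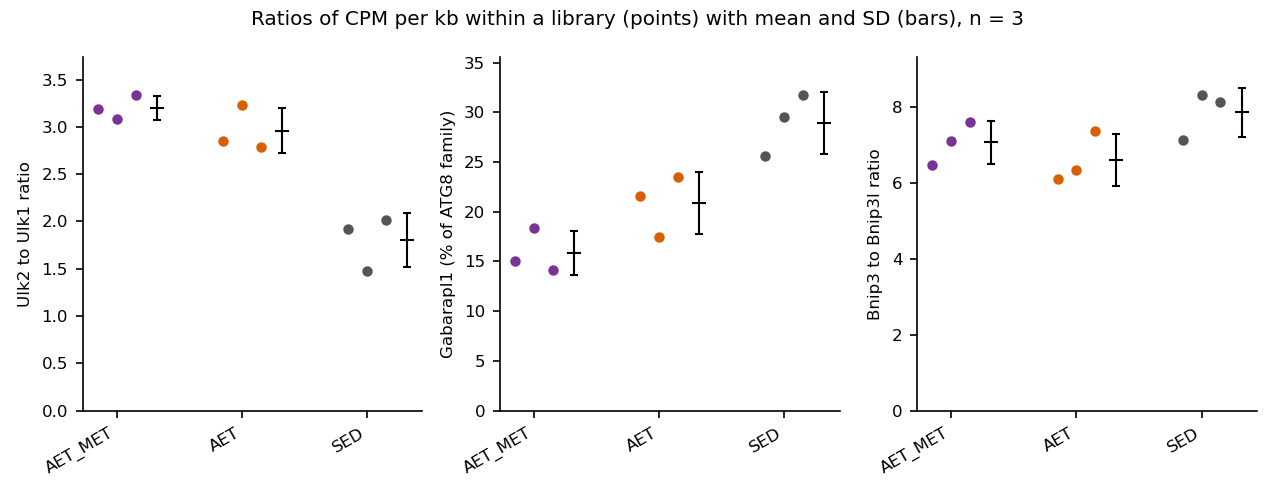
Ratios of CPM per kb within each library (points) with the mean and SD of 3 (bars) in AET_MET, AET and SED (x axis): Ulk2 to Ulk1, the share of Gabarapl1 in the ATG8 family in percent, and Bnip3 to Bnip3l. The Ulk2 to Ulk1 ratio averages 3.20 in AET_MET, 2.96 in AET and 1.81 in SED, and the Gabarapl1 share 15.9%, 20.9% and 28.9%, while the Bnip3 to Bnip3l ratio overlaps between groups.

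Wipi1 encodes a protein that binds the lipid made by the PI3K complex on the growing membrane. It stood at 41.1, 37.9 and 37.4 CPM in AET_MET libraries, at 35.1, 35.8 and 43.3 CPM in AET libraries and at 40.8, 41.8 and 49.1 CPM in SED libraries. The groups overlapped in all 3 comparisons. Wipi1 had a log2 change of -0.21 ± 0.10 in AET against SED and -0.18 ± 0.10 in AET_MET against SED (edgeR adjusted p = 0.187 and 0.325).

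Of the 3 ATG8 genes, Gabarapl1 had the largest change of all 10 genes in each comparison with SED. Gabarapl1 encodes a GABARAP protein that acts in late steps of autophagosome formation and in cargo docking. It stood at 39.4, 54.3 and 38.9 CPM in AET_MET libraries, at 47.4, 45.0 and 59.1 CPM in AET libraries and at 81.7, 106 and 106 CPM in SED libraries. AET_MET and AET overlapped, and both lay below SED. Gabarapl1 was 48.5% lower in AET than in SED (log2 change -0.96 ± 0.16, edgeR adjusted p = 0.00605). It was 54.9% lower in AET_MET than in SED (log2 change -1.15 ± 0.16, edgeR adjusted p = 0.00764), and remained called without AET_MET replicate 1 (edgeR adjusted p = 0.0343) but not with the slow-fiber covariate (log2 change -0.86, edgeR adjusted p = 0.0529).

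Map1lc3b encodes LC3B, the usual marker protein of autophagosomes. It stood at 98.6, 106 and 103 CPM in AET_MET libraries, at 91.2, 96.6 and 94.3 CPM in AET libraries and at 129, 149 and 131 CPM in SED libraries. The 3 groups did not overlap, with AET lowest and SED highest. Map1lc3b was 31.0% lower in AET than in SED (log2 change -0.53 ± 0.08, edgeR adjusted p = 0.00104). In AET_MET it was 24.9% lower than in SED (log2 change -0.41 ± 0.08, edgeR adjusted p = 0.0112), a call lost without AET_MET replicate 1 and without AET_MET replicate 3 (edgeR adjusted p = 0.0608 and 0.0595). It was also lost with library sizes alone and with the slow-fiber covariate (edgeR adjusted p = 0.0635 and 0.238). Map1lc3a, encoding the related LC3A, stood at 56.3, 62.4 and 61.3 CPM in AET_MET libraries, at 37.7, 55.1 and 46.5 CPM in AET libraries and at 60.7, 64.3 and 55.0 CPM in SED libraries. AET replicate 1 was the lowest of the 9, and AET replicate 2 lay within the SED range. Map1lc3a had a log2 change of -0.37 ± 0.12 in AET against SED (edgeR adjusted p = 0.0607) and 0.00 ± 0.12 in AET_MET against SED (edgeR adjusted p = 0.998). The first value was called in other fits: at -0.51 without AET replicate 2 (edgeR adjusted p = 0.0158), at -0.38 with no filter (edgeR adjusted p = 0.0384), at -0.37 with DESeq2 (adjusted p = 0.0406) and at -0.38 with the replicate number as a block (edgeR adjusted p = 0.0326).

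Summed per kilobase of exon over the 5 ATG8 genes, to which Gabarap and Gabarapl2 belong as well, Gabarapl1 made up 15.1%, 18.4% and 14.2% in AET_MET libraries, 21.6%, 17.5% and 23.5% in AET libraries and 25.6%, 29.5% and 31.7% in SED libraries. Its share was lower in all 6 libraries of trained mice than in SED. The share of Gabarap, a close relative of Gabarapl1, averaged 24.8% ± 1.44 in AET_MET, 23.6% ± 1.67 in AET and 19.7% ± 0.57 in SED (SD, n = 3 each), and did not overlap between either trained group and SED. The Gabarapl2 share did not overlap SED either, being 2.42 points higher in AET and 2.21 points higher in AET_MET. In AET_MET the share of Map1lc3a was 6.65 points higher than in SED and that of Map1lc3b 0.89 points lower, without overlap. In AET the shares of both overlapped SED. Shares of the same total are tied: a fall in that of Gabarapl1 raises the sum of the others. For each of these differences without overlap the exact two-sided permutation p was 0.1, the smallest possible, and 0.21 adjusted over the family. Gabarap itself was not called in AET against SED (log2 change -0.22 ± 0.07, edgeR adjusted p = 0.0559), nor was Gabarapl2 (-0.17 ± 0.09, edgeR adjusted p = 0.261). Neither was called in AET_MET against SED. Gabarap averaged 62.9 CPM in AET_MET, 52.3 CPM in AET and 61.05 CPM in SED.

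Sqstm1 encodes p62, a receptor that binds ubiquitin-tagged cargo and is itself broken down by autophagy. It stood at 416, 406 and 449 CPM in AET_MET libraries, at 363, 374 and 387 CPM in AET libraries and at 471, 538 and 542 CPM in SED libraries. The 3 groups did not overlap, with AET lowest and SED highest. Sqstm1 was 27.6% lower in AET than in SED (log2 change -0.47 ± 0.08, edgeR adjusted p = 0.00405). The log2 change in AET_MET against SED was -0.29 ± 0.08 and was not called (edgeR adjusted p = 0.0694), but it was called by DESeq2 (adjusted p = 0.00991).

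Among the 10 genes, the mitophagy receptor genes Bnip3 and Bnip3l were lower in AET, and the mitophagy kinase gene Pink1 was not called in any comparison. Bnip3 encodes a receptor in the outer mitochondrial membrane that binds ATG8 proteins and is known to be induced by low oxygen. It stood at 185, 196 and 202 CPM in AET_MET libraries, at 149, 156 and 168 CPM in AET libraries and at 221, 276 and 247 CPM in SED libraries. The 3 groups did not overlap, with AET lowest, AET_MET between and SED highest. Bnip3 was 36.3% lower in AET than in SED (log2 change -0.65 ± 0.09, edgeR adjusted p = 0.000908). In AET_MET it was 21.6% lower than in SED (log2 change -0.35 ± 0.09, edgeR adjusted p = 0.0451). That call was kept in 2 of the 9 fits with 1 library left out, those without SED replicate 1 or without AET replicate 1, and the adjusted p reached 0.168 without AET_MET replicate 1. It was also lost with upper-quartile scaling, with library sizes alone, in a fit of these 2 groups only and with the slow-fiber covariate (edgeR adjusted p = 0.0528, 0.153, 0.0567 and 0.506).

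Bnip3l encodes NIX, the paralog of BNIP3, known for clearing mitochondria from maturing red blood cells. It stood at 48.4, 47.0 and 45.1 CPM in AET_MET libraries, at 41.6, 41.9 and 38.8 CPM in AET libraries and at 52.8, 56.4 and 51.6 CPM in SED libraries. The order was again AET, AET_MET, SED from low to high, with no overlap. Bnip3l was 24.0% lower in AET than in SED (log2 change -0.40 ± 0.07, edgeR adjusted p = 0.00403), and its log2 change of -0.20 ± 0.07 in AET_MET against SED was not called (edgeR adjusted p = 0.134). Per kilobase of exon the level of Bnip3 was 7.08 ± 0.57 times that of Bnip3l in AET_MET, 6.61 ± 0.68 times in AET and 7.87 ± 0.64 times in SED (SD, n = 3 each). This ratio overlapped between all groups (exact two-sided permutation p of 0.2 to 0.4).

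Pink1 encodes a kinase that gathers on damaged mitochondria and marks them for removal, and its activity is known to be set largely by the stability of the protein. It stood at 455, 495 and 488 CPM in AET_MET libraries, at 418, 446 and 451 CPM in AET libraries and at 457, 429 and 499 CPM in SED libraries. AET_MET lay above AET, and SED overlapped both. The log2 change of Pink1 was -0.08 ± 0.08 in AET against SED and 0.05 ± 0.08 in AET_MET against SED (edgeR adjusted p = 0.584 and 0.767).

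**Figure D3:**
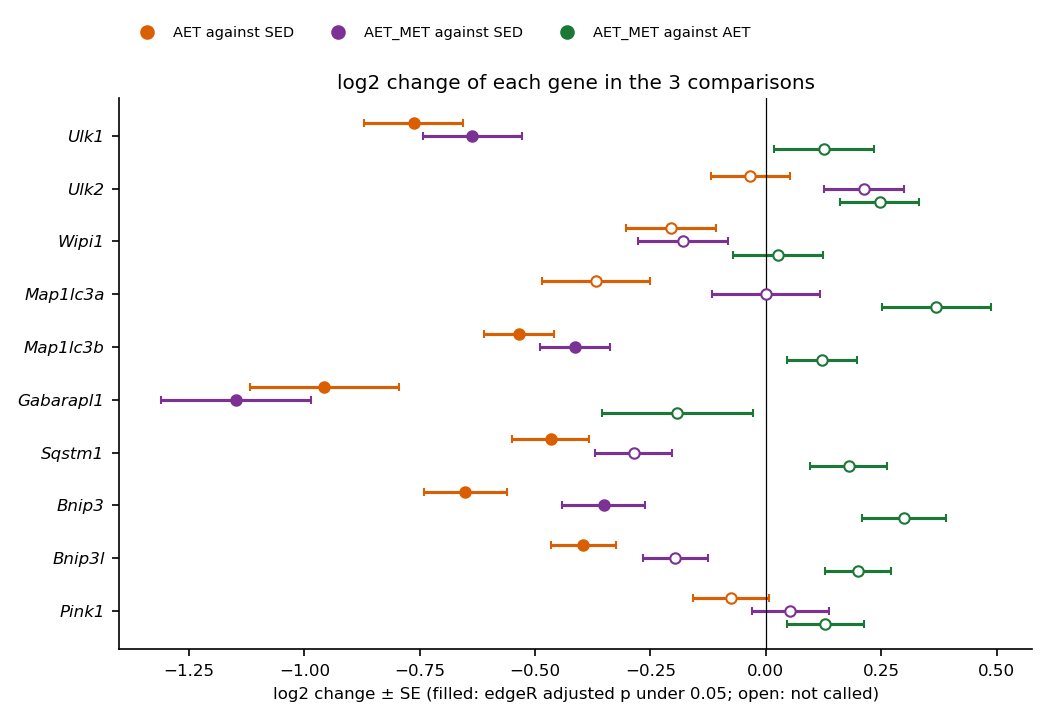
log2 change (x axis) with its SE for each of the 10 genes (y axis), in orange for AET against SED, in purple for AET_MET against SED, and in green for AET_MET against AET. Filled points passed an edgeR adjusted p under 0.05 and open points did not. The 6 filled points of AET against SED run from -0.40 for Bnip3l to -0.96 for Gabarapl1, and all 10 points of AET_MET against AET are open.

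Metformin in trained mice was tested directly by AET_MET against AET. None of the 10 genes was called by edgeR, 5 had an unadjusted p under 0.05, all of them higher in AET_MET, and DESeq2 called 1, Bnip3 (adjusted p = 0.0337). Of all 13944 genes tested, 3.43% were called in this comparison by the edgeR adjusted p, and 876 were called by DESeq2. The share of all genes with an unadjusted p under 0.05 is not given here. The same AET libraries also enter AET against SED, so that comparison and this one are not independent of each other. The estimate was higher in AET_MET for 9 of the 10 genes, Gabarapl1 being the exception at -0.19 ± 0.16. With the slow-fiber covariate described below the Gabarapl1 estimate was 0.01. Without that covariate, the Wipi1 estimate fell below 0 in 3 of the 9 fits with 1 library left out, to -0.03 at the lowest. The median log2 change was 0.15, beside 0.00 over all genes. The libraries of the groups did not overlap for 7 of the 10, which was the case for 27.9% of all genes. Map1lc3a had the largest estimate, at 0.37 ± 0.12 (edgeR adjusted p = 0.0975), followed by Bnip3 at 0.30 ± 0.09 (edgeR adjusted p = 0.0808) and Ulk2 at 0.25 ± 0.09 (edgeR adjusted p = 0.120). A p that misses the threshold does not show that levels in AET_MET and AET were alike. Map1lc3a was called without AET replicate 2, with a log2 change of 0.51 (edgeR adjusted p = 0.0328).

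In CPM per kilobase of exon, which allows genes to be compared, Pink1 was the most abundant and Ulk1 the least abundant of the 10 in every group. Pink1 averaged 179 ± 8.07 in AET_MET, 164 ± 6.63 in AET and 173 ± 13.3 in SED, and Ulk1 averaged 6.30 ± 0.20 in AET_MET, 5.77 ± 0.45 in AET and 9.79 ± 1.61 in SED (SD, n = 3 each). Sqstm1, Bnip3 and Map1lc3a followed Pink1 in that order in every group. Neighbours whose libraries overlapped were Gabarapl1 and Ulk2 in AET_MET, none in AET, and in SED the pairs Pink1 and Sqstm1, Map1lc3a and Gabarapl1, Map1lc3b and Ulk2, and Wipi1 and Ulk1. Gabarapl1 came next in every group, averaging 21.95 ± 4.34 in AET_MET, 25.1 ± 3.76 in AET and 48.7 ± 7.03 in SED (SD, n = 3 each). Its libraries overlapped those of Map1lc3a in SED but lay below them in AET_MET and AET. Lengths are those of all annotated exons joined, so a gene with a long exon that is seldom used is set too low.

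**Figure D4:**
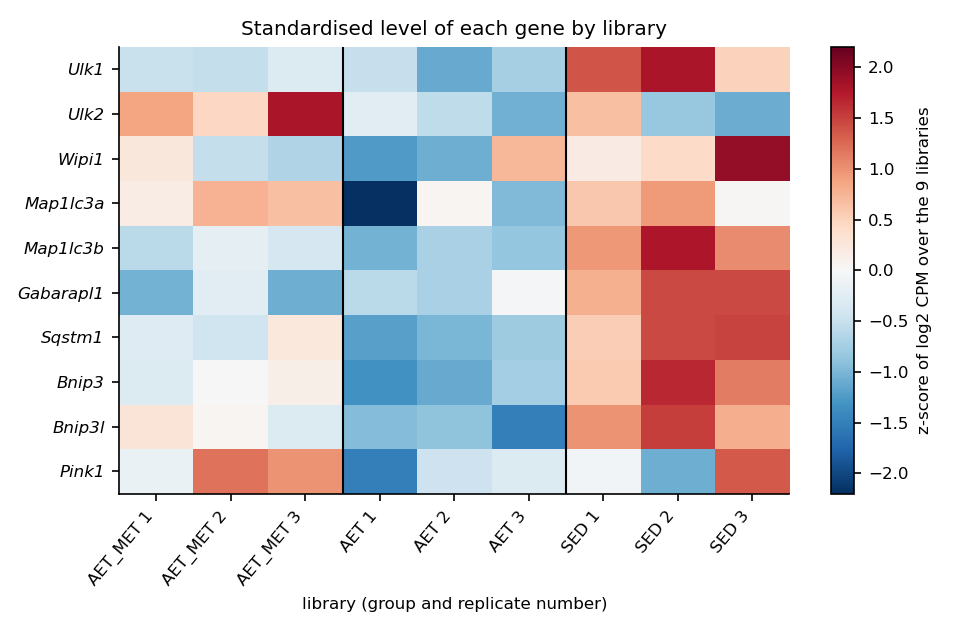
Level of each gene (rows) in each library (columns, by group and replicate) as a z-score of log2 CPM over the 9 libraries, from low (blue) to high (red). Ulk1, Map1lc3b, Gabarapl1, Sqstm1, Bnip3 and Bnip3l are above 0 in all 3 SED libraries and below 0 in all 3 AET libraries, whereas Ulk2 is highest in AET_MET replicate 3 and Pink1 in SED replicate 3.

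Profiles over the 9 libraries were compared by the mean absolute difference of z-scored log2 CPM, where 0 is identity. Among the 10 genes Sqstm1 and Bnip3 were the most alike (0.16), and Ulk2 and Wipi1 the least (1.35). Of 8097 other genes with at least 5 CPM, those closest to Ulk1 were Clip1 (0.11), Morc2a (0.16) and Gadd45a (0.16). Those closest to Map1lc3b were Arrdc3 (0.10), Tcp11l2 (0.11) and Sesn1 (0.11), and those closest to Gabarapl1 were Pnpla2, the gene of adipose triglyceride lipase (0.14), Midn (0.15) and Tango2 (0.15). Atf4, encoding a transcription factor of the integrated stress response, was among the 3 closest to both Sqstm1 (0.16) and Bnip3 (0.16), as was Nop2 (0.13 and 0.15). The third gene of these lists was Rnf113a2 for Sqstm1 (0.12) and Cebpd for Bnip3 (0.16), and Bnip3l was closest to Tle4 (0.12), Suox (0.18) and Ccdc86 (0.21). The median over the 8097 genes was 1.02 to 1.07 for these 6 genes. All these profiles share the same 9 libraries and their group means.

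The other genes of the pathway were read from 10 lists covering 122 further genes, of which 121 were tested. These lists too were chosen with earlier results of these data known, so the shares of all genes beside them are a description. In AET against SED 28 of the 121 fell and 1 rose, with a median log2 change of -0.12, beside 0.01 over all genes, of which 6.45% were lower and 5.82% higher. In AET_MET against SED 10 fell and 3 rose, with a median of -0.05, and 2.42% of all genes were lower and 2.17% higher. In AET_MET against AET 2 were called higher and none lower, with a median of 0.10, and of all genes 1.66% were called higher and 1.77% lower. For that absence of lower genes, edgeR gave 2 at an unadjusted p under 0.05 and DESeq2 called none.

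**Figure D5:**
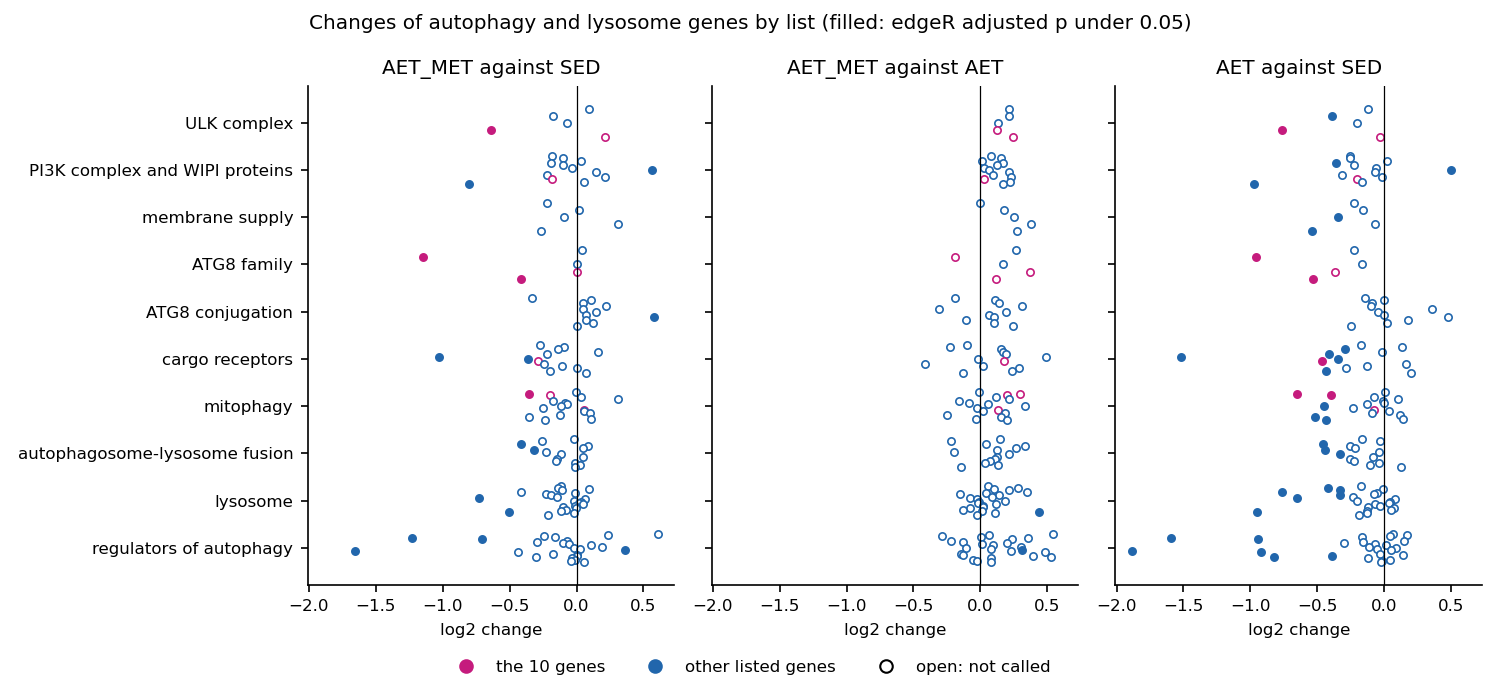
log2 change (x axis) of every tested gene on the 10 autophagy and lysosome lists (y axis) in AET_MET against SED, AET_MET against AET and AET against SED. Each point is a gene, filled where the edgeR adjusted p was under 0.05, with the 10 genes in pink. In AET against SED the filled points lie left of 0 except Rubcn at 0.50, and the points of the ATG8 conjugation list are all open. Over all genes, 12.3% were called in that comparison in either direction.

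Among genes of initiation and membrane growth, Zfyve1, encoding a lipid-binding protein that marks the site where autophagosomes form, stood at 28.4, 33.2 and 29.1 CPM in AET_MET libraries, 28.3, 26.6 and 25.9 CPM in AET libraries and 54.5, 55.2 and 48.5 CPM in SED libraries. Its log2 change was -0.97 ± 0.08 in AET against SED and -0.80 ± 0.08 in AET_MET against SED (edgeR adjusted p = 5.89e-05 and 0.00134). The only gene of the lists called higher in AET was Rubcn, encoding Rubicon, a repressor of the late PI3K complex. Rubcn stood at 32.1, 27.3 and 29.8 CPM in AET_MET libraries, 29.6, 28.5 and 27.1 CPM in AET libraries and 20.1, 19.5 and 20.7 CPM in SED libraries. Trained groups and SED did not overlap, and the log2 change was 0.50 ± 0.08 for AET and 0.56 ± 0.08 for AET_MET (edgeR adjusted p = 0.0025 and 0.0038). Vmp1, encoding a lipid scramblase of the endoplasmic reticulum, fell in AET by 0.54 ± 0.09, and Atg9a, encoding the scramblase of autophagy vesicles, fell in AET by 0.35 ± 0.07 on the log2 scale. Atg13, encoding an adaptor of the ULK kinases, fell in AET by 0.39 ± 0.10 on the log2 scale, and Nrbf2, encoding a subunit of the PI3K complex, fell in AET by 0.36 ± 0.11. With 1 library left out, 5 of 9 fits kept the call of Atg13 and 1 of 9 that of Nrbf2 (adjusted p up to 0.0938 and 0.153).

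The ATG8 conjugation enzymes gave no call in AET against SED by edgeR (0 of 11) or DESeq2. Of all genes, edgeR called 12.3% in either direction, so 0 of 11 does not set this list apart. At an unadjusted p under 0.05 there were 2 enzymes, both higher. Of these, Atg4c, encoding a protease that trims ATG8 proteins, averaged 4.32 ± 0.24 CPM in AET_MET, 4.03 ± 0.40 CPM in AET and 2.89 ± 0.15 CPM in SED (SD, n = 3 each). It was called in AET_MET against SED (log2 change 0.58 ± 0.15, edgeR adjusted p = 0.0467), but in none of the 9 fits with 1 library left out (adjusted p 0.0522 to 0.148).

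Of 12 other cargo receptor genes 5 fell in AET, where 6.45% of all genes were called lower. The steepest was Retreg1, encoding a receptor for autophagy of the endoplasmic reticulum, at 291, 353 and 238 CPM in AET_MET libraries, 176, 207 and 245 CPM in AET libraries and 542, 660 and 599 CPM in SED libraries. Retreg1 fell in both trained groups, with a log2 change of -1.52 ± 0.16 in AET against SED and -1.03 ± 0.15 in AET_MET against SED (edgeR adjusted p = 0.00039 and 0.00744). Tollip, Optn and Sec62 fell in AET by 0.43 ± 0.08, 0.42 ± 0.09 and 0.34 ± 0.07 on the log2 scale. Tollip and optineurin bind ubiquitin-tagged cargo, and SEC62 is a receptor for the endoplasmic reticulum. Sec62 was also called in AET_MET against SED, at -0.36 ± 0.07, a call kept in 6 of 9 fits with 1 library left out (adjusted p up to 0.0793). Of 14 other mitophagy genes 3 fell in AET: Tbk1, encoding a kinase that acts on cargo receptors (-0.52 ± 0.10), Pgam5, encoding a mitochondrial phosphatase (-0.45 ± 0.10), and Usp30, encoding a mitochondrial deubiquitinase that opposes mitophagy (-0.43 ± 0.13). The median log2 change of the 14 in AET against SED was -0.05, with 9 estimates lower and 5 higher. The Pgam5 call was lost without SED replicate 2 (adjusted p = 0.0566), and the Usp30 call was kept in 2 of the 9 fits with 1 library left out (adjusted p up to 0.136). In AET_MET against SED edgeR and DESeq2 called 0 of these 14, where 4.59% of all genes were called by edgeR, and at an unadjusted p under 0.05 there were 1 higher and 2 lower.

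Of 14 genes of fusion with the lysosome 3 fell in AET, and of 23 lysosomal genes 6 fell, beside 6.45% of all genes. Tecpr1, encoding a tether of autophagosomes and lysosomes, fell in AET by 0.44 ± 0.08 and Rab7, encoding a small GTPase of late endosomes, by 0.46 ± 0.11 on the log2 scale. Vps11, encoding a subunit of the tethering complexes of late endosomes and lysosomes, fell in AET by 0.33 ± 0.08. With 1 library left out, the Rab7 call was kept in 6 and the Vps11 call in 7 of 9 fits (adjusted p up to 0.0673 and 0.0514). In AET_MET against SED Rab7 and Tecpr1 were called at -0.41 ± 0.11 and -0.32 ± 0.08, and each call was kept in 1 of 9 such fits (adjusted p up to 0.186 and 0.139). Npc1, encoding the exporter of lysosomal cholesterol, stood at 120, 149 and 123 CPM in AET_MET libraries, at 92.6, 92.2 and 104 CPM in AET libraries and at 171, 191 and 194 CPM in SED libraries. Its 3 groups did not overlap. The log2 change of Npc1 was -0.95 ± 0.10 in AET against SED, -0.51 ± 0.10 for AET_MET against SED, and 0.44 ± 0.10 for AET_MET against AET (edgeR adjusted p = 0.000153, 0.0125 and 0.0294). The last call was kept in 3 of 9 fits with 1 library left out (adjusted p up to 0.103), and the call in AET_MET against SED in 6 of 9 (adjusted p up to 0.0774). Ctsl, encoding the protease cathepsin L, was called in both trained groups, at -0.65 ± 0.10 in AET against SED and -0.73 ± 0.10 in AET_MET against SED. Atp6v1h and Atp6v0e, encoding subunits of the proton pump that acidifies the lysosome, fell in AET by 0.77 ± 0.11 and 0.42 ± 0.12 on the log2 scale, the call of Atp6v0e being kept in 4 of 9 fits with 1 library left out (adjusted p up to 0.117).

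Of 25 regulators of autophagy 6 fell in AET and none rose by edgeR or DESeq2, with 0 higher at an unadjusted p under 0.05. Of all genes, edgeR called 6.45% lower and 5.82% higher in AET. Foxo3, encoding a FOXO factor, averaged 39.5 ± 5.12 CPM in AET_MET, 33.6 ± 2.10 CPM in AET and 64.5 ± 4.87 CPM in SED (SD, n = 3 each), with log2 changes of -0.94 ± 0.10 for AET and -0.71 ± 0.10 for AET_MET against SED (edgeR adjusted p = 0.000169 and 0.00297). Foxo1 changed by -1.59 ± 0.24 in AET and by -1.23 ± 0.24 in AET_MET against SED, and the second call was kept in 4 of 9 fits with 1 library left out (adjusted p up to 0.122). Trp53inp1, encoding a stress protein that binds ATG8 proteins, changed by -0.83 ± 0.14 in AET against SED. Sesn1, encoding an inhibitor of the growth kinase mTORC1, averaged 20.9 ± 2.32 CPM in AET_MET, 17.8 ± 1.53 CPM in AET and 65.6 ± 19.4 CPM in SED (SD, n = 3 each), and was called in both trained groups, at -1.88 ± 0.19 in AET and -1.65 ± 0.19 in AET_MET against SED. Rragd, encoding a GTPase that helps place mTORC1 on lysosomes, was called higher in AET_MET, at 301 ± 17.4 CPM, against 243 ± 9.81 CPM in AET and 235 ± 6.95 CPM in SED (SD, n = 3 each). Its log2 change was 0.36 ± 0.08 against SED and 0.31 ± 0.08 against AET (edgeR adjusted p = 0.0188 and 0.0436), and with 1 library left out 5 of 9 fits kept the first call and 0 of 9 the second (adjusted p up to 0.105 and 0.17).

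Markers of other cells and of fiber type moved with some of these groups. In bulk muscle, fewer cells of a type and less RNA per cell cannot be told apart. The 10 slow and oxidative fiber markers, none of them at 0, summed to 1178 to 2345 CPM in AET_MET, 2437 to 4785 CPM in AET and 2485 to 3801 CPM in SED, so the sums of AET_MET lay below those of both other groups. Their mean log2 level was 3.33 to 6.40 in AET_MET, 5.51 to 7.21 in AET and 6.56 to 6.85 in SED. On this scale AET_MET and AET overlapped, while all AET_MET libraries lay below all SED libraries. None of the 10 markers was called by edgeR in any comparison, beside 3.43% to 12.3% of all genes. At an unadjusted p under 0.05 there was 1 for AET_MET against SED and 1 for AET_MET against AET, both lower. DESeq2 called 1 lower, in AET_MET against AET. In AET_MET against SED all 10 estimates were lower, with a median log2 change of -1.23. The groups did not overlap there for 8 of the 10, beside 26.8% of all genes. The median was -0.84 in AET_MET against AET (10 lower) and -0.34 in AET against SED (8 lower, 2 higher). With the mean log2 level of these markers as a covariate, the same 6 of the 10 genes were called in AET against SED. None was called in AET_MET against SED, where 18 genes in all were called, against 640 without the covariate. AET_MET and SED did not overlap in this level, so that fit cannot tell marker level and group apart. The SE of Ulk1 in AET_MET against SED was 0.15 with the covariate and 0.11 without it. In that fit the log2 changes for AET_MET against SED were -0.61 for Ulk1, -0.37 for Map1lc3b, -0.86 for Gabarapl1 and -0.26 for Bnip3 (edgeR adjusted p = 0.172, 0.238, 0.0529 and 0.506). Of the other pathway genes called in AET_MET against SED, Zfyve1 stayed called in that fit (log2 change -0.73, edgeR adjusted p = 0.0423) and the other named ones did not. Their estimates kept their direction, for example -0.62 for Foxo3, -0.63 for Ctsl, -0.83 for Retreg1, -0.32 for Sec62 and -0.30 for Tecpr1, and a lost call does not show that a change was absent. The 8 fibroblast markers summed to 725 to 790 CPM in AET_MET, 853 to 932 CPM in AET and 1036 to 1403 CPM in SED. The 6 tenocyte markers summed to 90.1 to 212 CPM, 134 to 306 CPM and 311 to 508 CPM. Each sum was highest in SED without overlap, but single markers were less uniform. In AET against SED, 5 fibroblast estimates were lower and 3 higher. In AET_MET against SED, 6 were lower and 2 higher. In each of these comparisons edgeR called 2 of the 8 lower, beside 6.45% and 2.42% of all genes. Tenocyte estimates were lower for 5 and higher for 1 in AET, and all 6 were lower in AET_MET. None of the 6 was called against SED, beside 12.3% and 4.59% of all genes. The 7 Schwann cell markers summed to 42.6 to 91.0 CPM in AET_MET, 101 to 164 CPM in AET and 56.4 to 62.8 CPM in SED. Endothelial markers (10) summed to 257 to 319 CPM in AET_MET, 327 to 365 CPM in AET and 301 to 361 CPM in SED, and smooth muscle and pericyte markers (7) to 499.7 to 598 CPM, 601 to 707 CPM and 507 to 596 CPM. Adipocyte markers (7) summed to 130.4 to 245 CPM in AET_MET, 169 to 201 CPM in AET and 135 to 167 CPM in SED, and satellite cell markers (4) to 22.1 to 26.5 CPM, 19.5 to 22.3 CPM and 23.4 to 26.5 CPM. The macrophage and leukocyte list and the blood list overlapped between all groups, at 106 to 170.4 and 143 to 365 CPM over the 9 libraries. No marker of these lists was at 0, and the part of these cells in the changes of the 10 genes was not tested.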

How the data were processed

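The deposited table gives 1 column of expected counts per library, which are fractional read numbers per gene estimated by the authors. The build GRCm38 and the tools RSEM 1.3.0, STAR 2.5.3a and edgeR 3.34.0 are listed with no role, per the submitters' processing notes. Libraries were made from total RNA with a SMARTER mRNA kit, per the labels' protocols. The 55416 identifiers were matched to GENCODE M21, which gave a symbol to 52135. Values were rounded to whole numbers and tested with edgeR 4.0.16 in R 4.3.3 (robust quasi-likelihood, TMM, filterByExpr with a minimum count of 10, all 9 libraries, 6 residual degrees of freedom, biological coefficient of variation 0.134), with Benjamini-Hochberg adjustment over 13944 genes. The procedure was tested on simulated data. SEs were derived from the log2 change and its F statistic. CPM per kb divides by the length of all annotated exons of a gene joined. Depth sets the precision of low genes, and counts per gene within a group differed by more than sampling noise, so no libraries were merged.

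The members and all lists were chosen with earlier results of these data known. All 10 members are named. Of each pathway list, genes called in a comparison are named, at most the 4 with the smallest p, and where none was called the one with the smallest p may be named. For each member called, the 3 genes with the most similar profile are named. Alternatives were other scalings and filters, DESeq2 1.42.0, a replicate block, a slow-fiber covariate, fits of 2 groups only and leaving out each library. Alternatives for the pathway genes and for the ratios were chosen after seeing the data. Marker lists of 11 cell and fiber types were summed per library.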

Additional observations from a re-analysis of the deposited data

How the results depend on the processing

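The 6 calls in AET against SED kept their direction and side of the threshold in all 9 fits with 1 library left out and with the slow-fiber covariate. With 1 library left out, 934 to 1509 genes were called in AET against SED, 141 to 655 for AET_MET against SED, and 23 to 461 for AET_MET against AET. The members called numbered 6 to 7, 2 to 4 and 0 to 1, and the other pathway genes 19 to 26, 6 to 13 and 0 to 2. For AET_MET against SED, library sizes alone gave 2 members called, and the slow-fiber covariate gave 0 members and 18 genes. AET_MET and SED did not overlap in that covariate, so marker level and group cannot be told apart there. For AET_MET against AET, genes called numbered 767 with library sizes alone, 731 with no filter, 876 with DESeq2 and 22 with the covariate, against 478. Members called there numbered 2 with library sizes alone, 1 with no filter and 1 with DESeq2, against 0, and the other pathway genes 1 with upper-quartile scaling, 9 with library sizes alone and 10 with DESeq2, against 2. Library sizes alone moved the median log2 change of all genes to 0.10 for AET_MET against SED, and 0.09 for AET_MET against AET. Causes were not tested.

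Estimates of 4 genes changed sign, in comparisons where edgeR did not call them. Ulk2 in AET against SED was -0.083 to 0.0491 with 1 library left out, above 0 without SED replicate 1. Map1lc3a in AET_MET against SED was -0.0011 with RLE scaling, -0.0083 with no filter, -0.0011 with DESeq2 and -0.0002 with the replicate block, and -0.0582 to 0.0525 with 1 library left out. Gabarapl1 in AET_MET against AET was 0.0108 with the slow-fiber covariate, against -0.19, and Wipi1 there was -0.0273 to 0.13 with 1 library left out.

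Groups share replicate numbers, but deviations of same-numbered libraries correlated at -0.051 to 0.184 and not all over 0.1, so they were not taken as pairs. Same-numbered libraries of AET_MET and AET also end in the same letter of their names, whose meaning is not given in the sources used here, and their deviations correlated at -0.051 to 0. With the replicate block 1530, 535 and 358 genes were called in these 3 comparisons, and 7, 4 and 0 members, the seventh being Map1lc3a. In AET against SED each library correlated best with its own number, at 0.026 to 0.11, while in the other comparisons not every library did.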
